A study of Drosophila melanogaster with 3 samples.

Results

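Peaks of CG32006-GFP binding whose interval held more than 1 summit were chosen by the deposited summit calls themselves: rows of the authors' optimal dm6 peak list were grouped when they shared chromosome, start and end and differed in summit offset. This gave 233 peaks with 473 summits, among 11425 peaks and 11665 summits in all. The rule used measured peak calls, so the number of summits, their spacing, the peak width and the peak signal are given as descriptions with no test. The data came from 1 group with no second condition, 3 biological replicates of chromatin from whole Drosophila melanogaster prepupae, males and females mixed, of a single transgenic line. The line carried CG32006, a gene of chromosome 4, fused to GFP at its C-terminus, and chromatin was pulled down with an antibody against GFP. The promoter that drove the fusion and the number of animals pooled are not given in the labels used here. An age of 48 days also stands in the labels, far beyond the prepupal stage, so the stage name was used. A whole-animal sample mixes all tissues, so summits that lie side by side in a peak need not be bound in the same cells.

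CG32006 is listed with FoxJ1 among its synonyms, a name of the forkhead family of transcription factors, which grip DNA through a winged-helix domain. In vertebrates, FOXJ1 is known as a regulator of genes for motile cilia. In ChIP-seq, a peak is a stretch of DNA where sequenced fragments pile up over a control, and its summit is the position that a peak caller places nearest to the bound site. Sonicated fragments are longer than a binding site, so neighbouring sites can fall within a single peak, and a caller may then report several summits in it.

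The summits of 5 peaks are printed first, because they show the base content on which the sequence results turn. Of 7 peaks whose windows were read under the selection rule, these are CG9663, chif and Atf3, which were among the strongest peaks with closely spaced summits, and ph-d and Smr, which had widely spaced summits. Each line gives 61 bases of the plus strand of dm6, from the RefSeq Release 6 sequence, centred on the stronger summit, on the weaker summit, or midway between them. Capitals mark runs of at least 5 A or T bases. The windows lay at chr2L:3302172-3302232, chr2L:3302274-3302334 and chr2L:3302376-3302436 for CG9663, all in an intron of that gene. They lay at chr2L:16351236-16351296, chr2L:16351337-16351397 and chr2L:16351438-16351498 for chif, in an intron. For Atf3 they lay at chrX:1275481-1275541, chrX:1275582-1275642 and chrX:1275683-1275743, within 500 bp of its transcription start site (TSS). For ph-d they lay at chrX:2124139-2124199, chrX:2123780-2123840 and chrX:2123422-2123482, with the weaker summit near the ph-d TSS and the stronger in intergenic DNA. For Smr they lay at chrX:12735677-12735737, chrX:12735280-12735340 and chrX:12734884-12734944, in an intron.
CG9663 stronger: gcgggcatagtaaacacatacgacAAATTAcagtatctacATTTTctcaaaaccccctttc
CG9663 midway: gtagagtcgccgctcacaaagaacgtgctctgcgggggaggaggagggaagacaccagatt
CG9663 weaker: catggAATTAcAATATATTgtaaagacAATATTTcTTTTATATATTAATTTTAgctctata
chif stronger: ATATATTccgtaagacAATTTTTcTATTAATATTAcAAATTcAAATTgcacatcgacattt
chif midway: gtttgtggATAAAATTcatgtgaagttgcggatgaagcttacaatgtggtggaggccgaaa
chif weaker: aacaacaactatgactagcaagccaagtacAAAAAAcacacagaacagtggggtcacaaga
Atf3 stronger: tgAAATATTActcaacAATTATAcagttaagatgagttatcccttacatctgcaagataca
Atf3 midway: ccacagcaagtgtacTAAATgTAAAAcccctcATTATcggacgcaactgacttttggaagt
Atf3 weaker: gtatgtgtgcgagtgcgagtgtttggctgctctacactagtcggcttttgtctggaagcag
ph-d stronger: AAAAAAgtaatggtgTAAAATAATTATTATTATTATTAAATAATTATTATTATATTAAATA
ph-d midway: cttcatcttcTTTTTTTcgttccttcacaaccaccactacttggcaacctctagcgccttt
ph-d weaker: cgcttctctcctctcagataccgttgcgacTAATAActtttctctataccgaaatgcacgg
Smr stronger: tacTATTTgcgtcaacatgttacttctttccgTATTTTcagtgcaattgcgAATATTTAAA
Smr midway: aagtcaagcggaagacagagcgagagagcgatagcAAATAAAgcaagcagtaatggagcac
Smr weaker: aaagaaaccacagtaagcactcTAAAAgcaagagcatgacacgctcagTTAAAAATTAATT

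In these windows the stronger summits of chif, Atf3 and ph-d had GC contents of 22.95%, 29.5% and 6.56%, and their weaker summits had 41.0%, 52.5% and 45.9%. CG9663 and Reph went the other way. Reph, whose windows are not printed, had 39.3% at the stronger summit, 41.0% midway and 22.95% at the weaker, and CG9663 had 39.3% at the stronger and 18.03% at the weaker summit, with 59.0% between them. At Smr both summits were poor in GC, with 31.1% and 34.4%, and the point between them had 47.5%. The 3 windows of tara, the gene of a transcriptional coregulator, had 49.2%, 42.6% and 49.2%, so an A/T-rich summit was not a feature of every strong peak of this kind.

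Multi-summit peaks were 2.04% of the peaks in the optimal list (233 of 11425, Wilson 95% interval 1.80 to 2.32%). Of these, 228 had 2 summits, 4 had 3 and 1 had 5. The 4 peaks with 3 summits lay at wit, which encodes a type II BMP receptor, at ph-d, which encodes a Polycomb group protein, at CG31807 and grp, the checkpoint kinase gene, and nearest to muc. The peak with 5 summits spanned 2087 bp (chrX:11714662-11716748) and lay at Amun and prtp, the latter a gene of phagocytosis of dying cells. Its 5 pooled signal values, from left to right, were 259, 639, 620, 2036 and 260. Intervals here and below cover counting error of peaks or summits only, since sequencing depth is unknown, and the authors' pooled values have no replicate error.

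Multi-summit peaks were among the strongest of the list. The signal of the strongest summit, the authors' value on a scale that is not stated, had a median of 1485 with a range of 519 to 5806, against a median of 433 and a range of 197 to 10303 in the 11192 single-summit peaks. The ratio of the medians was 3.43 in the optimal list, and 4.18, 5.50 and 3.72 in the lists of replicates 1, 2 and 3. With the list ordered by signal and cut into 10 classes of equal size, multi-summit peaks were 9.01% of the strongest class and 9.02% of the next, then 1.84%, 0.350% and 0.175%. The 5 lower classes held 0 of them. The lowest signal in the list was 196.6, so any second summit below that value was not counted. This limit left less room for a second summit in the lower classes, and its part was not tested. The strongest, at Tina-1, reached 5806, below the highest single-summit value.

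The intervals were also wider, with a median width of 509 bp and a range of 311 to 2087 bp, against a median of 470 bp and a range of 118 to 1118 bp in single-summit peaks. A width of exactly 470 bp was listed for 5547 single-summit peaks (49.6%) and for 1 multi-summit peak. Of the 202 peaks that were 600 bp wide or more, 71 (35.1%) held several summits. Single-summit peaks with a signal of at least 519, the lowest of any multi-summit peak, numbered 4648 and had a median width of 345 bp.

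Summits of the same peak lay at nearly fixed distances. Over the 240 pairs of neighbouring summits the spacing ran from 199 to 793 bp with a median of 206 bp, and the quartiles were 202 and 214.5 bp. Of the pairs, 206 were under 230 bp apart, 15 were 230 to 299 bp apart and 19 were 300 bp or more apart. These classes of spacing were set after the distances had been seen. The minimum was 199 bp in each replicate's own list too, and the medians there were 203.5, 203.5 and 205 bp. In the dm3 list the minimum was 198 bp and the median 206 bp.

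**Figure D1:**
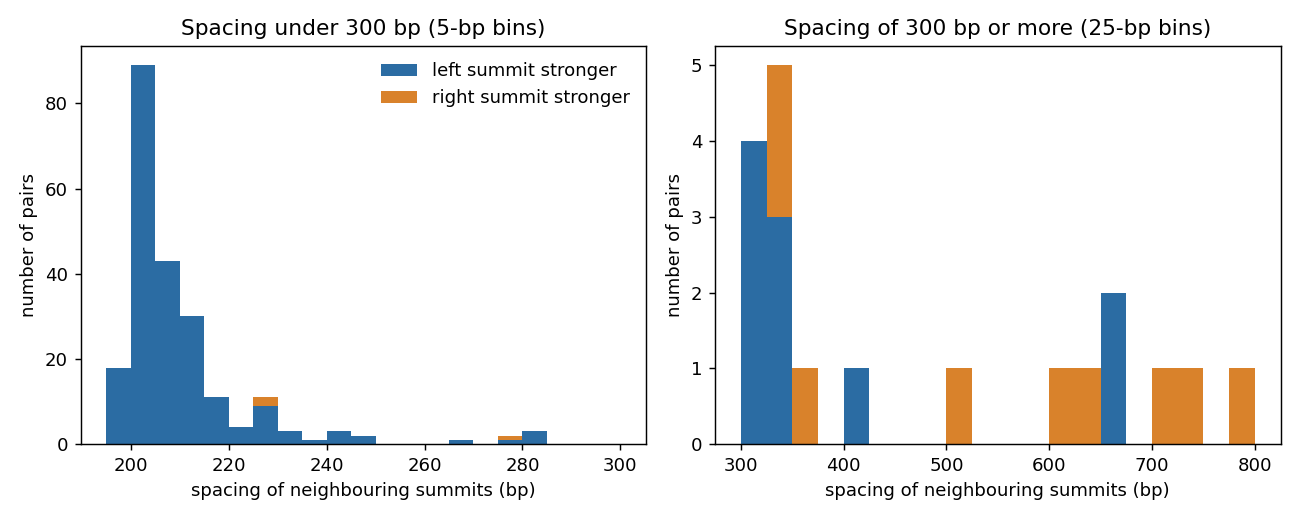
Numbers of neighbouring summit pairs of the same peak by spacing in bp, for pairs under 300 bp in 5-bp bins and for pairs of 300 bp or more in 25-bp bins, coloured by which summit had the higher signal. Pairs pile up from 199 bp with the left summit stronger, while the 19 widely spaced pairs have 10 with the left and 9 with the right summit stronger.

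In closely spaced pairs the summit at the lower coordinate, here called left, was almost always the stronger. This held for 204 of 206 pairs under 230 bp apart (99.0%, Wilson 95% interval 96.5 to 99.7%) and for 14 of 15 pairs 230 to 299 bp apart. It held for 10 of 19 pairs 300 bp or more apart (52.6%, Wilson 95% interval 31.7 to 72.7%). The plus direction of a chromosome arm is a convention of the assembly. The side was the same at genes of either strand. Where the stronger summit of a close pair was promoter-proximal, the left summit was stronger in 20 of 21 pairs at plus-strand genes and in 35 of 35 pairs at minus-strand genes. In the replicates' own lists the left summit was stronger in 188 of 188, 53 of 53 and 318 of 320 close pairs, and in the dm3 list in 169 of 170. The cause of this one-sidedness was not tested.

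The same spacing and side were found just outside the rule. Neighbouring summits under 230 bp apart that had been given separate intervals numbered 881, also began at 199 bp, and had the left summit stronger in 878 (99.7%). At 300 to 499 bp the left summit of separate intervals was stronger in 40 of 75 pairs, and at 500 to 999 bp in 603 of 1320. Close pairs that shared an interval were therefore 206 of 1087 (19.0%). In these the weaker summit had a median of 28.8% of the signal of the stronger, and in pairs with separate intervals 57.3%. Of the 881 separate pairs, 808 had intervals that overlapped, so whether such a pair counted as multi-summit turned on how its intervals had been written. The single-summit peaks used for comparison throughout thus also held summits of such close pairs.

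**Figure D2:**
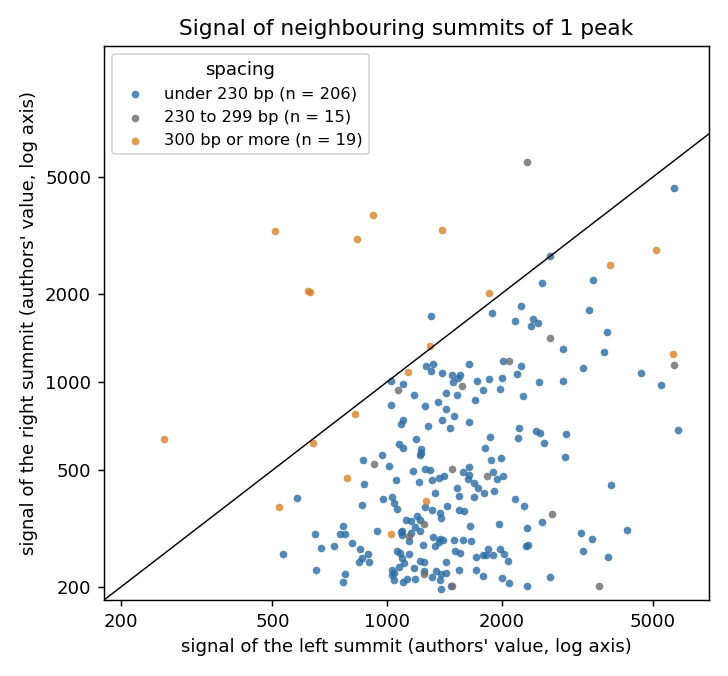
Signal of the left against the right summit of each of the 240 neighbouring pairs (authors' pooled values, both axes logarithmic), with colours for spacing and a line of equal signal. The 206 close pairs lie below the line in all but 2 cases, whereas 9 of the 19 widely spaced pairs lie above it.

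Over all pairs the weaker summit had a median of 29.2% of the stronger summit's signal, with a range from 5.56 to 99.7%. The second summit of a peak had a median signal of 435 and a range of 197 to 4576, so its median was near that of the single-summit peaks.

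The 20 strongest multi-summit peaks each had a summit within 100 bp of their stronger summit in all 3 replicates, and their weaker summits were found less evenly. At Tina-1 the left summit had a pooled signal of 5806 and replicate signals of 1796, 2039 and 1949, and the right summit, 201 bp away, had 684 pooled and 235, 168 and 263 in the replicates. CG9663 had the most even close pair among the strongest, 204 bp apart: 5697 pooled with 1527, 2245 and 1876 in the replicates at the left, and 4576 pooled with 1233, 1739 and 1540 at the right. In both peaks the left summit was higher in each of the 3 replicates, and at Tina-1 the ranges of the summits did not overlap, while at CG9663 they did. Here and below, replicate values at named summits are descriptions, since the pooled signal that set the stronger summit came from the same reads.

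At Atf3, the gene of a bZIP transcription factor, the left summit had 3819 pooled and 1094, 1409 and 1330 in the replicates. Its right summit, 202 bp away, had 253 pooled, 126 in replicate 1 and no replicate summit within 100 bp in the other replicates. At chif, whose product activates the Cdc7 kinase at replication origins, the summits had 4648 and 1073 pooled, with replicate values of 1344, 1501 and 1786 at the left and 211, 367 and 477 at the right. The left chif summit was thus the higher in each replicate, with no overlap. Adf1, which encodes a transcription factor first known from the Adh gene, had 5667 at the left and 1142 at the right, 236 bp apart, with replicate values of 1618, 2123 and 1813 against 261, 209 and 482.

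At LPCAT, named for a lysophospholipid acyltransferase, the summits had 4279 and 312, and at CG1888 they had 3880 and 446, with 203 bp between the summits in each case. In both, replicate 2 had no summit within 100 bp of the weaker position. CG46429 and Sesn, the Sestrin gene, had a rare reversed pair at 276 bp with 2327 at the left and 5644 at the right. The right summit had replicate values of 1506, 1828 and 2169, and the left summit was found in replicate 1 alone, at 621.

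Widely spaced pairs, 300 bp or more apart, numbered 19 in 17 peaks, of which 8 were on the X chromosome. That chromosome held 46 of all 233 multi-summit peaks and 2227 of all 11425 peaks, and the difference was not tested. The widest, 793 bp, lay in an intron of Smr, which encodes the co-repressor Smrter of the ecdysone receptor. Its left summit had 1393 pooled and 488, 150 and 683 in the replicates, and its right summit had 3303 pooled and 971, 1032 and 1304. The right summit was higher in each replicate and the ranges did not overlap. A second Smr peak had summits 308 bp apart with 783 and 471.

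The polyhomeotic genes ph-p and ph-d, neighbouring copies that encode subunits of Polycomb repressive complex PRC1, each had such a peak. The ph-p summits, 657 bp apart, lay 464 and 395 bp from its nearest TSS and had 5087 and 2823 pooled, with 1564, 2132 and 1643 in the replicates at the left and 906, 1038 and 1018 at the right. The left summit was higher in each replicate with no overlap. At ph-d the summits had 509, 3283 and 1116, and the outer left one, 717 bp from the next, had replicate values of 199, 286 and 56.8. The strongest ph-d summit lay 883 bp from its TSS and had replicate values of 928, 910 and 1422, all above those of its neighbours. Because the genes are near-identical copies, reads that match both could have been split between them, and their values are uncertain to that extent.

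Reph had summits 665 bp apart with 5663 at the left, in an intron, and 1243 at the right, near the TSS, and the replicates gave 1639, 2075 and 1998 against 310, 454 and 501. At tara the summits, 335 bp apart, had 3852 and 2515, and replicate values of 918, 1060 and 1544 against 566, 1200 and 722. These ranges overlapped, and in replicate 2 the right tara summit was the higher. At Pak3, the gene of a p21-activated kinase, the pair was 327 bp apart with 917 at the left and 3712 at the right, and the left summit had a replicate summit within 100 bp in replicate 3 alone, at 468.

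Other widely spaced pairs were at AMPdeam, the AMP deaminase gene, with 836 and 3083, and at Hex-A, a hexokinase gene, with 627 and 2019. Nearly equal summits were found at CG31807 and grp with 1299 and 1331, at CG42342 with 823 and 779, at sky, which encodes a Rab GTPase-activating protein of synapses, with 1134 and 1082, and at CG12643 with 1849 and 2005. At CG5758, the weakest multi-summit peak of all, they had 519 and 375. Nearest to muc, the middle and right of the 3 summits made a wide pair with 1025 and 302. In the wit peak the signal fell from left to right, with 3723, 1269 and 393, and its replicates gave 1102, 1512 and 1221 for the first, 455, 440 and 433 for the second and 113, 347 and 131 for the last. In each replicate the wit summits stood in the same order.

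Recurrence was measured as the share of positions with a summit within 50 bp in each replicate's list of 11665 strongest rows. The pooled list was made from the same reads, so these shares describe how evenly the replicates carried a summit and are not an independent check. For close pairs, 91.9% ± 1.40 (SD, n = 3) of stronger summits and 66.3% ± 7.62 (SD, n = 3) of weaker summits recurred. The position at the same distance on the other side of the stronger summit, called mirrored here, had a replicate summit in 0.162% ± 0.280 (SD, n = 3) of pairs, and the midway point in 7.44% ± 0.742 (SD, n = 3). In each replicate's list, summits of the same peak lay at least 199 bp apart, with the left stronger in nearly all close pairs. Few replicate summits could therefore fall at mirrored or midway points of close pairs, and those shares are no yardstick for the weaker summits. For widely spaced pairs the shares were 89.5% ± 10.5 for the stronger and 84.2% ± 5.26 for the weaker summit (SD, n = 3). Single-summit peaks of signal 519 or more recurred in 91.1% ± 1.70 (SD, n = 3), and all single-summit peaks in 76.1% ± 0.790 (SD, n = 3). All single-summit peaks had a median signal of 433, near the median of 435 of the second summits.

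**Figure D3:**
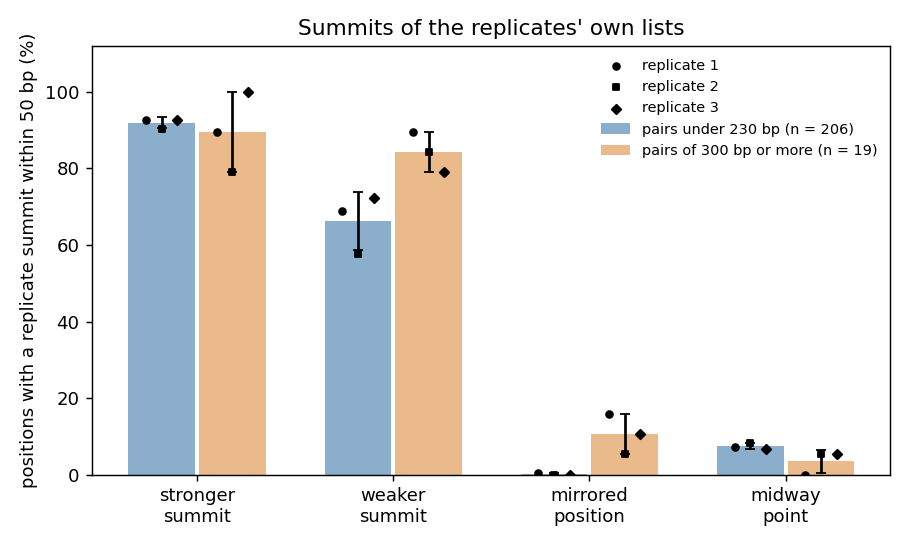
Percentage of positions with a summit within 50 bp in each replicate's own list, for close and widely spaced pairs. Bars are means, error bars are the SD over 3 replicates, and points are the replicates. Weaker summits of close pairs recurred in 66.3%. Mirrored positions had 0.162%, but like midway points they had little room for a replicate summit, so their shares are no yardstick.

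Of the 240 pairs, 190 stronger and 97 weaker summits recurred in all 3 replicates, and 2 stronger and 15 weaker summits in none. Both summits were listed within a shared interval for 35.4% of pairs in replicate 1, 10.8% in replicate 2 and 57.5% in replicate 3. The replicates' lists also differed in how many multi-summit peaks they held, with 204 (1.78%), 60 (0.517%) and 356 (3.15%). Replicate 2 also had the fewest of its 30000 deposited rows at a −log10 q of at least 2, with 9587 against 14910 in replicate 1 and 17614 in replicate 3. The part of this difference in the numbers of multi-summit peaks was not tested.

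Base content differed between the summits of a close pair. In 101-bp windows the mean GC content was 31.1% ± 7.53 (SD over 206 pairs) at the stronger summit, 34.6% ± 9.97 midway and 42.8% ± 9.29 at the weaker summit, against 45.1% ± 9.14 at the mirrored position. The weaker summit had the higher GC content in 170 of 206 pairs. In the 881 close pairs with separate intervals the means were 31.1% at the stronger summit, 29.8% midway, 37.7% at the weaker summit and 46.2% mirrored. There the weaker summit had the higher GC content in 598 pairs, and the midway point was the poorest in GC on average. Over all pairs of the replicates' own lists the weaker summit exceeded the stronger by 12.3, 11.8 and 12.4 percentage points, a mean of 12.2 ± 0.309 (SD, n = 3). All 3 replicates had this direction, and an exact sign-flip permutation test, two-sided, gave p = 0.25, the smallest value that 3 replicates allow.

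The weaker summits were slightly poorer in GC than the mirrored positions. Over all pairs of the replicates' lists the difference was −3.21, −1.71 and −4.13 points, a mean of −3.02 ± 1.22 (SD, n = 3), with the same exact p = 0.25. In the pooled list the weaker summit was below its mirrored position in 119 of 206 close pairs. With separate intervals it was below in 643 of 881 close pairs. Around the 4648 single-summit peaks of signal 519 or more, GC content was 30.2% at the summit and 45.3% at 200 bp to the right in 51-bp windows. Around the stronger summit of close pairs it was 30.2% and 42.3%. Those single-summit peaks had a median signal of 922, against 1485 in multi-summit peaks, so signal was only partly matched.

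**Figure D4:**
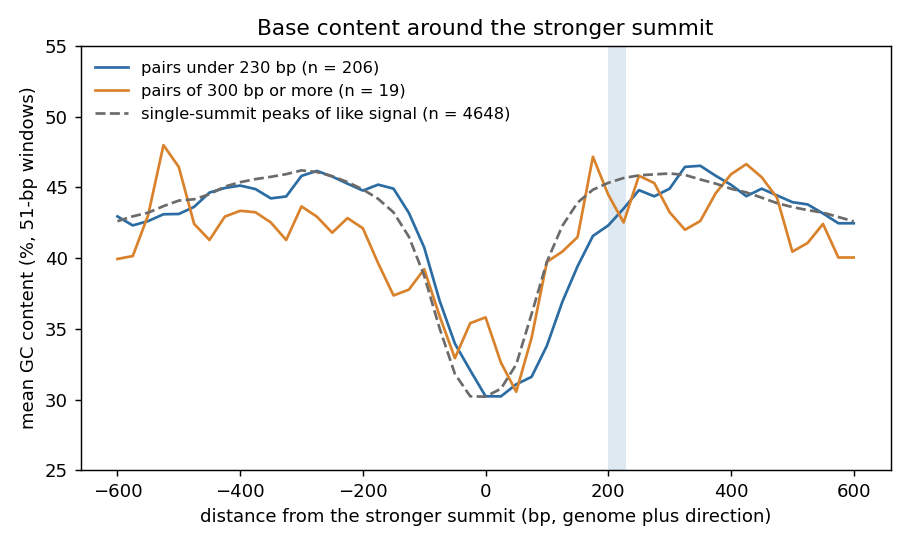
Mean GC content in 51-bp windows against distance from the stronger summit in bp along the genome plus direction, for close pairs, widely spaced pairs and single-summit peaks of signal 519 or more. The legend calls these single-summit peaks of like signal, although their median signal was 922, against 1485 in multi-summit peaks. The shaded band marks 199 to 229 bp to the right, where the weaker summit of nearly all close pairs lay, and the trough of close pairs is wider on that side, with 42.3% against 45.3% at 200 bp.

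Widely spaced pairs had a different profile. GC content was 33.9% ± 8.72 at the stronger summit, 42.6% ± 10.3 midway and 37.6% ± 10.6 at the weaker summit (SD over 19 pairs). The midway point was richer in GC than both summits in 9 of 19 wide pairs and in 41 of 206 close pairs. With separate intervals it was richer than both in 42 of 75 pairs at 300 to 499 bp and 1017 of 1320 at 500 to 999 bp. A GC-rich midway point was thus not particular to wide pairs that shared an interval. At CG12643 the values were 37.6% at the stronger summit, 60.4% midway and 26.7% at the weaker summit, and at Smr they were 30.7%, 53.5% and 29.7%. Over all pairs, close and wide, the midway point differed from the mean of its summits by −0.728, −4.50 and −1.19 points in the lists of replicates 1, 2 and 3, a mean of −2.14 ± 2.05 (SD, n = 3; exact sign-flip permutation test, two-sided, p = 0.25), so this small difference did not hold for widely spaced pairs.

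Compared with single-summit peaks, all summits of multi-summit peaks were on average richer in GC, by 3.87 points ± 0.171 (SD, n = 3 replicates), and their strongest summits differed by −2.19 points ± 0.405 (SD, n = 3). Both directions were shared by all 3 replicates, with p = 0.25 in the exact sign-flip permutation test (two-sided). In the pooled list the strongest summits had 31.3% ± 7.48 (SD over 233 peaks), against 32.7% ± 8.64 in all single-summit peaks and 30.5% ± 7.28 in those of signal 519 or more. The direction for the strongest summit thus turned when only single-summit peaks of signal 519 or more were used. Median signal in those peaks was 922, against 1485 in multi-summit peaks, so signal was not fully matched. The family held 7 exact sign-flip permutation tests over replicates, each with p = 0.25, so Benjamini-Hochberg adjustment leaves every value at 0.25.

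The 6 short motifs searched, none of which contains another, were counted in 101-bp windows on both strands, as descriptions of letters only. TGTTTAC, a forkhead core, was in 2 of 206 stronger summits of close pairs (0.971%), in 6 weaker summits (2.91%), in 4 mirrored positions (1.94%) and in 2.24% of single-summit windows. CACACA was in 3.40% of stronger summits, 13.1% of weaker summits and 15.0% of mirrored positions, and in 6.53% of single-summit windows. GAGAG, the core of the GAGA factor site, was in 5.34% of stronger summits, 13.1% of weaker summits and 21.8% of mirrored positions, against 9.55% of single-summit windows. TAATTA, a homeodomain core, was in 11.2% of stronger and 7.77% of weaker summits, 3.88% of mirrored positions and 10.6% of single-summit windows. TCGATA, the core of the BEAF-32 site, was in 1.94% of stronger and 1.46% of weaker summits, 2.43% of mirrored positions and 3.82% of single-summit windows. AAAAAA was in 23.8% of stronger and 24.8% of weaker summits, 16.02% of mirrored positions and 29.5% of single-summit windows. Differences between the positions were not tested.

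Introns were the commonest location of multi-summit peaks, as of single-summit peaks. The strongest summit was in an intron in 114 of 233 peaks (48.9%, Wilson 95% interval 42.6 to 55.3%), promoter-proximal, within 500 bp of the TSS of a protein-coding gene, in 64 (27.5%, 22.1 to 33.5%) and intergenic in 51 (21.9%, 17.1 to 27.6%). Single-summit peaks had 51.02%, 22.7% and 22.1%. No strongest summit lay in a coding exon, which with 233 peaks allows a share of up to 1.62%, and 3 of the other 240 summits did. All summits of a peak fell in the same class in 204 peaks. The other 29 mixed classes, of which 14 had promoter and intron, and 8 promoter and intergenic DNA.

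Counting a peak when any of its summits was promoter-proximal gave 76 of 233 multi-summit peaks (32.6%) against 22.7% of single-summit peaks, a difference of 9.89 percentage points. A peak with more summits has more chances under this count. In the replicates' lists the difference was 19.3, 16.4 and 8.44 points, a mean of 14.7 ± 5.62 (SD, n = 3), and for the strongest summit alone it was 14.4, 13.1 and 5.07, a mean of 10.8 ± 5.04. All 3 replicates had the same direction in both, and the exact sign-flip permutation test, two-sided, gave p = 0.25 for each.

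Strong peaks were more often promoter-proximal whether or not they had several summits. Single-summit peaks of signal 519 or more had a promoter-proximal share of 27.5%, the same as the 27.5% of the strongest summits of multi-summit peaks. The median signal of these single-summit peaks was 922, against 1485 in multi-summit peaks. Within signal classes the share for strongest summits was 7.41% against 22.6% at 500 to 1000, 21.5% against 24.5% at 1000 to 1500, 34.7% against 34.1% at 1500 to 2000, 40.0% against 39.1% at 2000 to 3000, and 37.5% against 54.7% above. For the strongest summit, multi-summit peaks were thus higher in 2 of the 5 classes, by less than 1 point each. Counting any summit, the share was 7.41% in the lowest class and then 24.7%, 36.7%, 47.5% and 58.3%, above that of single-summit peaks in 4 of the 5 classes, by 0.209, 2.68, 8.42 and 3.66 points. These differences within classes were not tested.

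**Figure D5:**
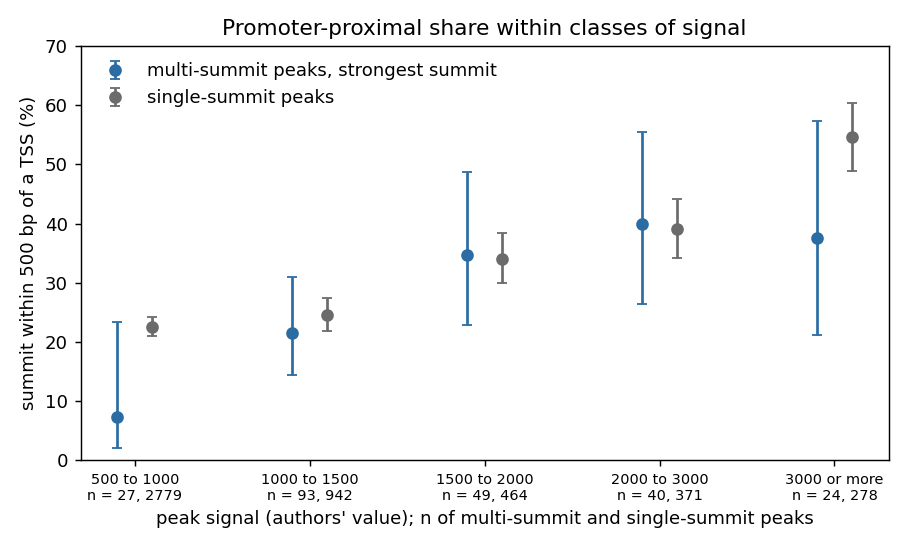
Percentage of peaks whose strongest summit lay within 500 bp of a TSS, in classes of pooled peak signal, for multi-summit and single-summit peaks. Bars are Wilson 95% intervals, which cover counting error only. The intervals of the kinds of peak overlap in all 5 classes, narrowly in the lowest, where that of multi-summit peaks reaches up to 23.4% and single-summit peaks have 22.6%.

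By chromosome arm, multi-summit peaks were 1.51% of peaks on 2L, 2.80% on 2R, 1.84% on 3L, 2.10% on 3R and 2.07% on X. The 95% Wilson intervals were 1.067 to 2.138% for 2L, the lowest of these arms, and 2.139 to 3.650% for 2R, the highest. They cover counting error of peaks only, and the difference between arms was not tested. Chromosome 4, which carries CG32006 itself at 150764 to 153538, had 4 peaks and no multi-summit peak.

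A TSS lay between neighbouring summits in 12 of 240 pairs (5%, Wilson 95% interval 2.88 to 8.53%). The strongest was at CG3552, with 5256 and 977 at 109 and 100 bp on either side of a plus-strand TSS. At CIA30, named for an assembly factor of respiratory complex I, the summits had 3605 and 201, and the weaker lay 70 bp from the TSS. Others were at CG12316 (2205 and 644), pod1, which encodes a coronin-like protein (2192 and 1064), lolal, a BTB protein gene (1985 and 270), and Hat1, a histone acetyltransferase gene (1217 and 455). At tty and fliI, genes on opposite strands, 2 TSS positions lay between summits of 1789 and 938. The left summit was the stronger in all of these, at genes on either strand. The remaining pairs were at CG42694, CG9775 and CG7943, and the 5-summit peak had 2 pairs of this kind at Amun, where the right summit was the stronger.

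Of 13945 protein-coding genes, 90 had a summit of a multi-summit peak within 500 bp of a TSS (0.645%) and 151 had a summit in the gene body (1.08%). Among the 2659 genes with any promoter-proximal summit of the optimal list, the 90 were 3.38%. In 18 gene lists with 353 genes in all, 11 genes had a multi-summit peak at their promoter (3.12%) and 17 in their gene body (4.82%), and the 11 were 7.91% of the 139 list genes with any promoter-proximal summit. The lists had been drawn up with results of these data known, so these shares are descriptions and nothing is called particular to the lists. The lists for the forkhead family, fat body and lipid genes, the circadian clock, Hippo and growth, neurons, glia, muscle, imaginal discs and Hox genes each had 0 genes with such a peak at the promoter.

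Promoters of signalling genes with such a peak were those of spi, numb, aph-1 and shn. At spi, which encodes the EGFR ligand Spitz, the promoter-proximal left summit had 2674 pooled and 818, 911 and 955 in the replicates, and the right summit had 216 pooled and was found in replicate 3 alone, at 123. At numb, whose product restrains Notch, the summits had 2338 and 317. Replicates 1 and 3 had 755 and 792 at the left numb summit and 133 and 83.2 at the right, whereas replicate 2 had no summit within 100 bp of the left position and 864 near the right. That value was closer to the left values of the other replicates than to their right ones. Which numb summit it belongs to was not tested. At aph-1, a gamma-secretase subunit gene that shares its peak with Snx21, the summits were more even, with 1645 and 1155 pooled, 450, 547 and 634 in the replicates at the left and 306, 398 and 463 at the right. The aph-1 values were lower at the right in each replicate, and their ranges overlapped by a small margin.

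The zinc-finger gene shn, which acts in BMP signalling, had 3 multi-summit peaks, with strongest summits of 2584, 1374 and 899. That of 1374 lay 301 bp from a TSS, and its replicates gave 372, 391 and 638 against 25.04, 35.2 and 336 at the weaker summit, which was thus carried mainly by replicate 3. Eip63E, an ecdysone-induced cyclin-dependent kinase gene, had 2, with strongest summits of 1474 in an intron and 1250 at a promoter. At Hsp26, a small heat shock gene, the summits had 1818 and 257, with 500, 472 and 831 in the replicates against 62.0, 50.7 and 97.2. At Atg8a, whose product coats autophagosomes, they had 1195 and 638, with 377, 355 and 399 against 168, 232 and 228. In both genes the left summit was higher in each replicate and the ranges did not overlap.

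Promoters of the cuticle gene Cpr50Ca (1557 and 261) and of the ribosomal protein gene RpL32, which shares its peak with CG7943 (1177 and 233), also had a multi-summit peak. Among list genes with such a peak in the gene body alone, the strongest was at trx, the trithorax gene, with 2718 and 353 and a spacing of 284 bp in a 1118-bp peak. The ecdysone response genes E23, an ABC transporter gene, and Eip74EF, an Ets factor gene, had 1668 and 287, and 1905 and 256. The Hippo pathway gene wts, which encodes a kinase, had 2 peaks with strongest summits of 2075 and 1412, and the Hox gene Antp had 2 with 1708 and 1380. The neighbouring HMG-box genes HmgD and HmgZ shared 1 peak with 1396 and 740. The others were mam (1088), fz2 (870), arr (1072) and pnt (534), whose signals at the strongest summit are given, and the spacing of all these pairs other than that of trx was from 199 to 225 bp.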

How the data were processed

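ChIP-seq peak lists of 3 biological replicates of 1 group were used. The authors deposited a list of 30000 rows per replicate, called against a control per the deposited notes, a pooled list and an optimal list named as thresholded by IDR, the irreproducible discovery rate. Not given in the sources used here: aligner, peak caller, IDR cut-off and depth. Signal was taken as the authors deposited it, on an unstated scale, and so were −log10 q-values, which are the authors' own. Summit offsets were added to the start, and 9 offsets past the interval end (3 in multi-summit peaks) were set to its last base.

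Members, gene lists and tests were chosen with earlier results of these data known. Each replicate's 11665 strongest rows served for recurrence and tests, and replicate signals are the strongest summit within 100 bp in all 30000 rows. Summits were located with Ensembl release 115 by the first class that applied (promoter, coding exon, UTR, intron, non-coding gene, or else intergenic), and GC content was read from the RefSeq Release 6 genome, with dm6 coordinates counted from 1. Differences were tested over replicates by exact sign-flip permutation, two-sided, which cannot go below p = 0.25. The replicates may share a control, so p-values measure only the spread between these samples. Named genes were those at the 20 strongest multi-summit peaks, at peaks with 3 or more summits, with the 5 widest, narrowest or weakest, with a TSS between summits, or in a list; genes of the other widely spaced pairs and list genes with a peak in the gene body were added after their values were seen. Scripts ran in Python 3.11.15 with pandas 2.3.3, numpy 2.4.6 and scipy 1.17.1, and were tested on simulated data.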

Additional observations from a re-analysis of the deposited data

How the results depend on the processing

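No paired analysis was possible because the series has 1 group. The share of multi-summit peaks, 2.04%, was 10.8% when overlapping intervals were merged and 0.517% in the list of replicate 2. The median spacing of 206 bp was 203.5 bp in the lists of replicates 1 and 2 and 205 bp in that of replicate 3. The median width of 509 bp was 603 bp in the strongest 50% of rows and 448 bp in replicate 2. The signal ratio of 3.43 was 2.09 in the strongest 50% and 5.50 in replicate 2. The promoter-proximal difference of 9.89 points reversed to −15.2 at signal 500 to 1000, −16.4 at widths of 300 to 400 bp and −12.5 at 500 to 600 bp, and leaving out each replicate gave 9.82 to 17.9. Introns held 61.8% in place of 48.9% when the gene body came before promoters. The midway GC difference of −1.14 points reversed to 6.12 for pairs of 230 bp or more and 6.80 for 300 bp or more. With each replicate left out it ran from −1.18 to −0.969 over pooled peaks and from −2.84 to −0.960 as means of the other lists. The summit GC difference of 4.05 points reversed to −1.40 for the strongest summit. With each replicate left out it ran from 4.48 to 4.82 over pooled peaks and from 3.77 to 3.94 as means of the other lists. Genes numbered 151 by gene body in place of 90. The left summit was stronger in 95% of pairs, 97.1% in replicate 1, 99.0% under 230 bp, 70.6% at 230 bp or more and 52.6% at 300 bp or more. The weaker summit's GC difference from the mirrored position was −2.35 points in close pairs, −3.08 over all pairs and −4.48 in wide pairs. In wide pairs the weaker summit was below its mirrored position in 9 of 19. The causes were not tested. The alternatives on side, on wide spacing and on the strongest summit's GC were chosen after seeing the data. The other alternatives kept their direction, but not all their size: the promoter-proximal difference was 0.209, 2.68, 8.42 and 3.66 points in the signal classes from 1000 up, 5.28 and 9.60 at widths of 400 to 500 bp and 600 bp or more, 4.74 for the strongest summit and 5.18 over all summits, and the share of multi-summit peaks was 1.17% in all pooled rows. Depth is unknown, and 60 multi-summit peaks in replicate 2 limit its values.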

Other observations

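The full pooled list, of which the optimal list is the part with the highest signal, held 348 multi-summit peaks (1.17% of its 29642 peaks). Of these, 115 were not multi-summit peaks of the optimal list. In this longer list the left summit was the stronger in 306 of 308 pairs under 230 bp apart, and the minimum spacing was again 199 bp.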
